A study of Mus musculus with 16 samples.

Results

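Muscle fibres tear at their surface membrane when they contract, and a small set of proteins seals the wound. The 10 genes described here encode such sarcolemma repair proteins, followed as transcripts in tibialis anterior muscle of Dnm2SL/+ mice and their controls. They were the ferlins Dysf and Myof, the patch protein Trim72, the annexins Anxa1, Anxa2, Anxa5 and Anxa6, the scaffold genes Ahnak and Ahnak2, and the annexin partner S100a10. They were taken by name from the 30037 genes of the count table, with results of these data already known, and all 10 passed the filter on low counts that left 15649 genes for testing.

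The series followed male C57BL/6N mice aged 7 weeks in 4 groups. Dnm2SL/+ mice, heterozygous for a mutant allele of Dnm2 and presented in the series title as a model of autosomal dominant centronuclear myopathy, received the antisense oligonucleotide ASO1 (Dnm2SL/+ ASO1, 4 libraries) or ASO Control (Dnm2SL/+ ASO Control, 6 libraries). Wild-type (WT) mice received ASO1 (WT ASO1, 2 libraries) or ASO Control (WT ASO Control, 4 libraries), so all 4 groups had received an oligonucleotide. The labels give no dose, route or injection schedule, and they do not say that libraries of a group came from separate animals, so that p-values measure the spread between libraries. Each library held between 30148163 and 33667052 counts.

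Dnm2, which encodes the membrane-severing GTPase dynamin 2 and is the transcript ASO1 lowers by the series title, was measured to check the labels. Its level was 26.6 to 35.2 CPM (counts of the gene per 1000000 counts of the library, scaled by the TMM method of edgeR) in Dnm2SL/+ ASO1, 35.2 to 65.1 CPM in Dnm2SL/+ ASO Control, 23.0 to 25.0 CPM in WT ASO1 and 45.4 to 57.2 CPM in WT ASO Control, and it was lower under ASO1 than under ASO Control in Dnm2SL/+ mice (log2 fold change -0.85 ± 0.15, SE, edgeR adjusted p = 0.0016). Tmed1, on the other strand over exons of Dnm2, had 924 to 1192 counts in a library. Some libraries stood apart. Replicate 6 of Dnm2SL/+ ASO Control had the lowest Dnm2 of its group, at the level of the highest ASO1 library, and also the lowest Dysf, Ahnak and Ahnak2 of its group. Replicate 1 of WT ASO Control was the highest of its group for 6 of the 10 repair genes and had a summed macrophage marker level of 119.9 CPM, against 51.8 to 61.8 CPM in the other WT ASO Control libraries. Its summed fibro-adipogenic, tendon, adipocyte and satellite cell markers were also the highest of its group. Replicate 3 of Dnm2SL/+ ASO1 was the highest of its group for 7 of the 10.

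In the usual account of membrane repair, calcium that enters through a tear drives vesicles to the wound, where they fuse into a patch. Dysferlin, which is lost in a form of limb-girdle muscular dystrophy, binds calcium and phospholipid and acts in that fusion, while the muscle protein MG53, encoded by Trim72, gathers vesicles at the site. Annexins bind exposed phospholipid in the presence of calcium and cap the wound, S100A10 binds annexin A2, and AHNAK is a very large scaffold that associates with both dysferlin and the annexin A2 complex.

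Several of the genes moved together across the groups, so the sequences around their transcription starts were searched for muscle and stress motifs, and those of 3 genes that span large and moderate differences are shown. RefSeq starts on GRCm38.p6 were matched for 8 of the 10 genes (all except Anxa6 and S100a10), and each window runs over 300 bases, with 250 before the start and 50 after it. Capitals mark a match to a searched motif on either strand. The motif of AP-1 was TGANTCA. That of M-CAT was GGAATG. The muscle E-box was searched as CAGCTG, and the CArG box, bound by serum response factor, was the last of the motifs. The windows of Ahnak2, which had the largest fold difference of the 10, of Anxa2 and of Anxa5 read as follows.

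Ahnak2, chr12:112795693-112795992, minus strand: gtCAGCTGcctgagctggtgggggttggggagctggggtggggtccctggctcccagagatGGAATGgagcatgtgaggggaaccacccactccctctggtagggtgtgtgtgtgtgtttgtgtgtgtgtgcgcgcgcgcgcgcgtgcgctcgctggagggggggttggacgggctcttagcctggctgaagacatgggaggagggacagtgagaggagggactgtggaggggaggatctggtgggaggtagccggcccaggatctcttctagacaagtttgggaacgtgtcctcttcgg

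Anxa2, chr9:69453433-69453732, plus strand: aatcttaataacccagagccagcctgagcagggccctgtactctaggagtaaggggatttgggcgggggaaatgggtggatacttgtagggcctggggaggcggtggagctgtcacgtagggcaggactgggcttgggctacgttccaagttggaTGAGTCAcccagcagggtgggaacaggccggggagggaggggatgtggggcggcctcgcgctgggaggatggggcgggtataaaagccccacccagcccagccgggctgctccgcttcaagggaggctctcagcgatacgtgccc

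Anxa5, chr3:36475838-36476137, minus strand: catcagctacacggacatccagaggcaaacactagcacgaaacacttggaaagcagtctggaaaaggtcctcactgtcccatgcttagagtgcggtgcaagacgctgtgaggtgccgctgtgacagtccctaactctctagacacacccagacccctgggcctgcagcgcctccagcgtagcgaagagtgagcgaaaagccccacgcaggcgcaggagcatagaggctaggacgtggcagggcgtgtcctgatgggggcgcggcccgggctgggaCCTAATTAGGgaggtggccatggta

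The Ahnak2 window held an E-box and an M-CAT match, 248 and 189 bases upstream of the start, and it lies inside the gene as GENCODE draws it. Anxa2 held an AP-1 match 95 bases upstream, and Anxa5 held a CArG box 25 bases downstream. An M-CAT match was also present upstream of Ahnak and Anxa1, whereas none of the motifs was found in the windows of Dysf, Myof and Trim72. Over all 32851 promoter windows of the same length, the M-CAT letters were present in 14.7%, the E-box in 16.3%, AP-1 in 7.81% and the CArG box in 1.63%. No motif was present in all 8 matched genes, and a match is only a run of letters.

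Compared per exon length, on the scale of RPKM (CPM per 1000 bases of exon), the repair genes differed widely in abundance. In Dnm2SL/+ ASO Control the order ran from Trim72 at 158.4 ± 13.4 RPKM and Anxa6 at 103.4 ± 5.02 RPKM down to Ahnak2 at 6.87 ± 1.57 RPKM and Myof at 0.659 ± 0.114 RPKM (SD, n = 6). Between them S100a10, Anxa2, Anxa5 and Ahnak lay close together at 38.4, 37.5, 33.3 and 31.3 RPKM with overlapping libraries, followed by Dysf at 20.1 RPKM and Anxa1 at 15.7 RPKM. In WT ASO Control the same scale placed Trim72 at 101.2 ± 1.40 RPKM and Anxa6 at 83.6 ± 3.81 RPKM (SD, n = 4), and the last place was that of Ahnak2 at 0.284 ± 0.0904 RPKM, below Myof at 0.587 ± 0.146 RPKM. There Dysf and S100a10 (13.4 and 13.6 RPKM) were not separated beyond their spread, and neither were Anxa5 and Ahnak (18.9 and 17.6 RPKM).

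**Figure D1:**
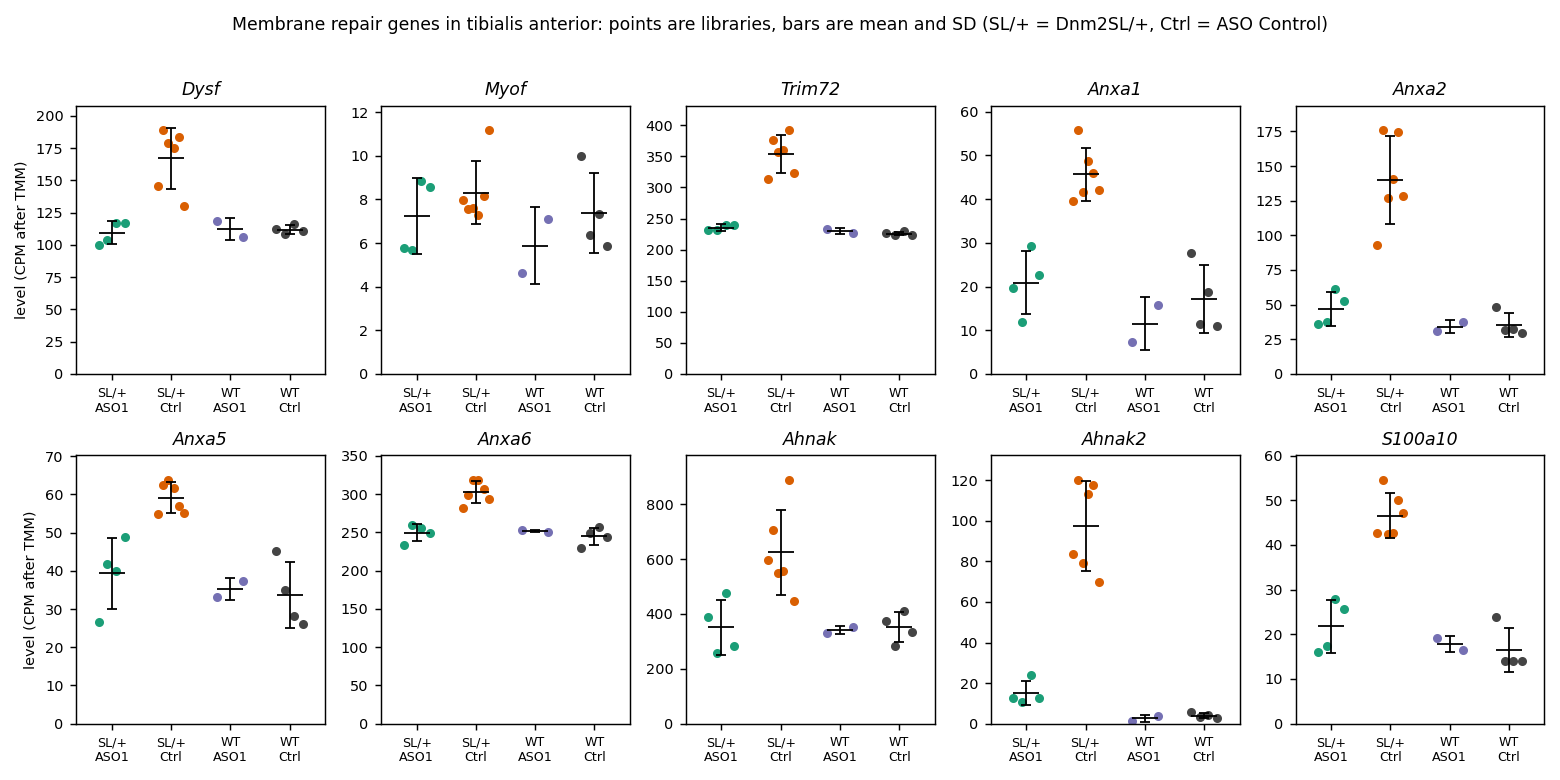
Level of each of the 10 repair genes in CPM after TMM scaling, with a point for each library and a bar for the group mean and SD, in Dnm2SL/+ ASO1 (n = 4), Dnm2SL/+ ASO Control (n = 6), WT ASO1 (n = 2) and WT ASO Control (n = 4). In 9 of the 10 panels all Dnm2SL/+ ASO Control libraries lie above all WT ASO Control libraries, and Myof is the exception.

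Among the ferlins, Dysf, on chromosome 6 (GRCm38, 84008590 to 84211060, ENSMUSG00000033788, plus strand), was higher in Dnm2SL/+ ASO Control than in every other group. It had 100.02, 103.9, 117.2 and 116.8 CPM in Dnm2SL/+ ASO1 and 130.1, 177.0 and 189.0 CPM (lowest, median and highest of 6) in Dnm2SL/+ ASO Control. The WT libraries had 118.6 and 106.4 CPM under ASO1, and 112.0, 108.7, 116.2 and 110.6 CPM under ASO Control. The lowest Dnm2SL/+ ASO Control library was thus above the highest library of the other 3 groups, which overlapped each other. Exons of Dysf are overlapped on the other strand by Gm33024, which had at most 5 counts in any library, and by Gm15475, which was not analysed here.

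Myof, which encodes myoferlin, a ferlin known for its part in myoblast fusion (chromosome 19, 37899036 to 38043577, ENSMUSG00000048612, minus strand), was the 1 repair gene whose groups overlapped in all 5 comparisons. Its levels were 5.76, 5.67, 8.86 and 8.59 CPM in Dnm2SL/+ ASO1 and 7.31, 7.79 and 11.2 CPM (lowest, median and highest) in Dnm2SL/+ ASO Control. In WT ASO1 it had 4.63 and 7.12 CPM, and in WT ASO Control 9.99, 6.38, 7.33 and 5.87 CPM. The 11.2 CPM of Dnm2SL/+ ASO Control replicate 6 and the 9.99 CPM of WT ASO Control replicate 1 were the highest values in their groups. The log2 fold change (log2FC) of Dnm2SL/+ ASO Control over WT ASO Control was 0.17 ± 0.19 (SE), smaller than its error.

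Trim72 (chromosome 7, 128003949 to 128011033, ENSMUSG00000042828, plus strand) was the most abundant of the 10 per exon length, and its libraries lay close together outside Dnm2SL/+ ASO Control. Dnm2SL/+ ASO1 libraries had 231.8, 230.9, 239.3 and 240.2 CPM, and Dnm2SL/+ ASO Control libraries had 314.2, 358.3 and 392.3 CPM (lowest, median and highest). WT ASO1 libraries had 233.9 and 226.7 CPM, and WT ASO Control libraries had 227.0, 222.8, 229.8 and 224.0 CPM. Every library outside Dnm2SL/+ ASO Control lay within 222.8 to 240.2 CPM, and the 6 Dnm2SL/+ ASO Control libraries began well above that. Gm15533, on the other strand of Trim72, had at most 2 counts.

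For the annexins and S100a10 every Dnm2SL/+ ASO Control library was above every WT ASO Control library, but by very different amounts. Anxa2 (chromosome 9, 69453620 to 69491795, ENSMUSG00000032231, plus strand), which tethers membranes and binds S100A10, had 36.3, 37.2, 60.997 and 52.7 CPM in Dnm2SL/+ ASO1 and 93.2, 134.6 and 175.9 CPM (lowest, median and highest) in Dnm2SL/+ ASO Control. It had 30.7 and 37.5 CPM in WT ASO1, and 48.3, 31.7, 32.2 and 29.4 CPM in WT ASO Control. Replicates 3 and 4 of Dnm2SL/+ ASO1 were above every WT library for this gene, while replicates 1 and 2 lay among them. Exons of Anxa2 are overlapped on the other strand by Gm16144, which was not analysed here.

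S100a10 (chromosome 3, 93555080 to 93564643, ENSMUSG00000041959, plus strand) was likewise highest in Dnm2SL/+ ASO Control. Its levels were 16.1, 17.5, 27.8 and 25.7 CPM in Dnm2SL/+ ASO1 and 42.5, 45.0 and 54.6 CPM (lowest, median and highest) in Dnm2SL/+ ASO Control. WT ASO1 libraries stood at 19.1 and 16.5 CPM, and WT ASO Control libraries at 23.8, 14.03, 14.08 and 14.05 CPM. As for Anxa2, replicates 3 and 4 of Dnm2SL/+ ASO1 were the higher pair, and WT ASO Control replicate 1 was far above its group.

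Anxa1 (chromosome 19, 20373428 to 20390944, ENSMUSG00000024659, minus strand), an annexin also known as an anti-inflammatory mediator, had the widest relative spread of the 10 in WT ASO Control, with a coefficient of variation of 45.3%. It had 19.6, 11.8, 29.3 and 22.7 CPM in Dnm2SL/+ ASO1 and 39.6, 44.1 and 55.8 CPM (lowest, median and highest) in Dnm2SL/+ ASO Control. It had 7.29 and 15.7 CPM in WT ASO1, and 27.6, 11.4, 18.7 and 11.01 CPM in WT ASO Control. The ASO1-treated mutants overlapped with both WT groups, and no library outside Dnm2SL/+ ASO Control reached the lowest library within it.

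Anxa5 (chromosome 3, 36448923 to 36475894, ENSMUSG00000027712, minus strand), whose protein forms a lattice on damaged membrane, showed a smaller difference. Dnm2SL/+ ASO1 libraries had 26.5, 41.9, 39.9 and 49.0 CPM, and Dnm2SL/+ ASO Control libraries had 54.8, 59.3 and 63.8 CPM (lowest, median and highest). WT ASO1 libraries had 33.1 and 37.3 CPM, and WT ASO Control libraries had 45.2, 35.1, 28.2 and 26.0 CPM. The range of treated mutants covered nearly the whole range of WT ASO Control.

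Anxa6 (chromosome 11, 54979108 to 55033445, ENSMUSG00000018340, minus strand), an annexin that gathers at the repair cap of mouse muscle fibres, was abundant in all groups and differed least among the 4 annexins of the 10. Its levels were 233.6, 259.8, 255.7 and 249.9 CPM in Dnm2SL/+ ASO1 and 281.3, 302.9 and 318.8 CPM (lowest, median and highest) in Dnm2SL/+ ASO Control. WT ASO1 had 252.8 and 251.2 CPM, and WT ASO Control had 230.1, 248.7, 256.7 and 243.7 CPM. Although the difference was small, no library outside Dnm2SL/+ ASO Control reached 281.3 CPM.

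The giant scaffold genes differed from each other in level and in fold. Ahnak (chromosome 19, 8989284 to 9076914, ENSMUSG00000069833, plus strand) had 388.9, 258.1, 475.5 and 284.7 CPM in Dnm2SL/+ ASO1 and 445.4, 577.2 and 888.9 CPM (lowest, median and highest) in Dnm2SL/+ ASO Control. It had 330.2 and 351.5 CPM in WT ASO1, and 373.2, 283.7, 411.5 and 334.8 CPM in WT ASO Control. Replicate 3 of Dnm2SL/+ ASO1 reached into the range of Dnm2SL/+ ASO Control, so these groups overlapped for Ahnak.

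Ahnak2 (chromosome 12, 112772194 to 112802657, ENSMUSG00000072812, minus strand), a related scaffold gene, was low in WT muscle. It had 12.6, 10.8, 23.8 and 12.8 CPM in Dnm2SL/+ ASO1 and 69.8, 98.5 and 120.2 CPM (lowest, median and highest) in Dnm2SL/+ ASO Control. WT ASO1 libraries had 1.42 and 3.81 CPM, and WT ASO Control libraries had 5.60, 3.11, 4.51 and 2.86 CPM. The treated mutants were below every Dnm2SL/+ ASO Control library and above every WT library, a gap on both sides that no other of the 10 genes had.

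Under ASO Control the genotype comparison asks how the mutant muscle differs from WT. Results of this comparison were known when the genes were chosen, so its values are a description. Of the 10 genes, 9 were called higher in Dnm2SL/+ ASO Control at an adjusted p under 0.05 of the quasi-likelihood test of edgeR, and 0 lower, where 15.7% of all tested genes were called higher and 32.1% in either direction. For the same 9 genes the groups did not overlap, where 11.3% of all genes were higher without overlap. The median log2FC was 0.82 over the 10 genes and 0.0022 over all tested genes.

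The size of the difference set the genes apart. Ahnak2 was 24.1-fold higher in Dnm2SL/+ ASO Control (log2FC 4.59 ± 0.32, SE). Anxa2 was 3.95-fold, S100a10 2.82-fold and Anxa1 2.66-fold higher. Ahnak (1.78-fold), Anxa5 (1.76-fold), Trim72 (1.57-fold) and Dysf (1.49-fold) lay close to one another, and Anxa6 was 1.24-fold higher with a log2FC of 0.31 ± 0.05 (SE). Trim72 and Dysf, the muscle genes of the patch, thus had smaller folds than Anxa2 and S100a10, the genes of the annexin A2 complex. In sum over the 10 genes, levels were 1845.1 ± 251.2 CPM (SD, n = 6) in Dnm2SL/+ ASO Control and 1047.5 ± 75.1 CPM (SD, n = 4) in WT ASO Control.

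**Figure D2:**
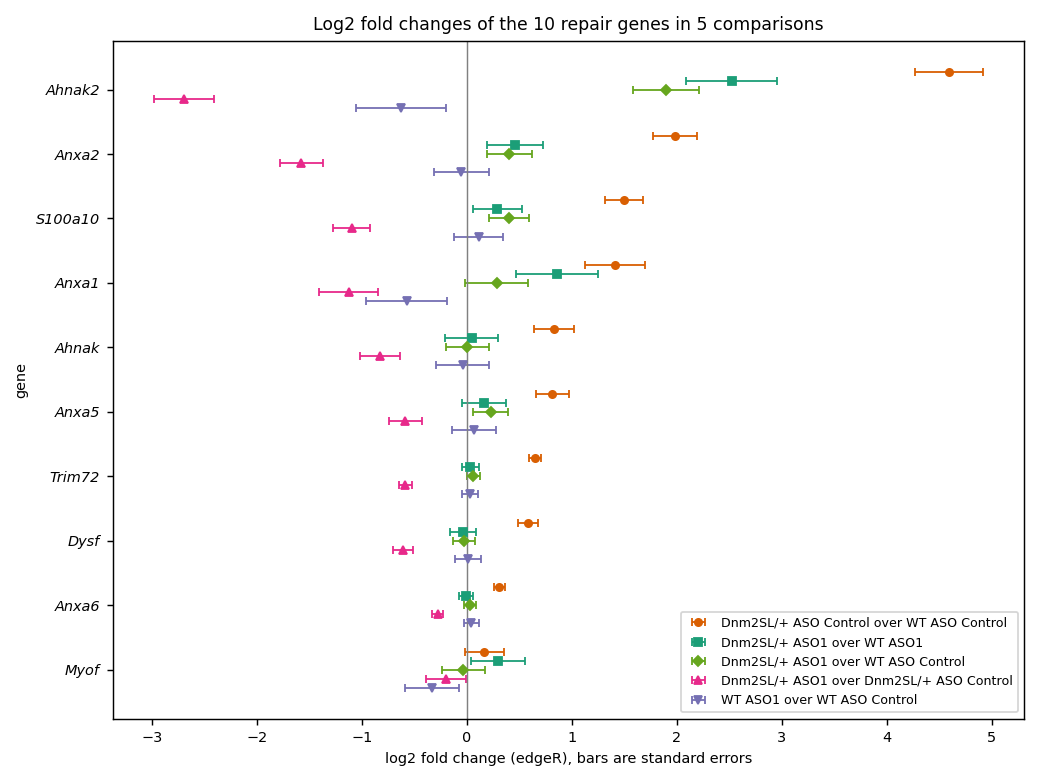
Log2 fold changes of the 10 genes with standard errors in 5 comparisons, ordered by the genotype difference under ASO Control. Ahnak2 stands at 4.59 for Dnm2SL/+ ASO Control over WT ASO Control and at 2.52 for Dnm2SL/+ ASO1 over WT ASO1, where Trim72 (0.03), Dysf (-0.04) and Anxa6 (-0.01) lie close to 0.

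ASO1 was compared with ASO Control in Dnm2SL/+ mice to ask which differences the oligonucleotide changes in mutant muscle. This comparison shares the 6 Dnm2SL/+ ASO Control libraries with the one above, so a mirrored direction is in part fixed by them, and it too is given as a description. Of the 10 genes, 9 were called lower in Dnm2SL/+ ASO1 (all except Myof) where 8.06% of all tested genes were called lower. In 8 of them the groups did not overlap, beside 6.24% of all genes that were lower and 5.1% that were higher without overlap. Without Dnm2SL/+ ASO1 replicate 1, the library with the lowest Anxa5, 8 were called, since Anxa5 was not.

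Ahnak2 was 6.48-fold lower in Dnm2SL/+ ASO1 than in Dnm2SL/+ ASO Control (log2FC -2.70 ± 0.29, SE), and Anxa2 was 2.99-fold lower. Anxa1 and S100a10 were 2.19-fold and 2.14-fold lower. Ahnak was 1.78-fold lower, Dysf 1.53-fold, and Trim72 and Anxa5 had a log2FC of -0.59 each. Anxa6 was 1.21-fold lower, and Myof had a log2FC of -0.20 ± 0.19. The median log2FC over the 10 genes was -0.72, against 0.0052 over all tested genes. The summed level was 1097.5 ± 127.8 CPM (SD, n = 4) in Dnm2SL/+ ASO1 and 1845.1 ± 251.2 CPM (SD, n = 6) in Dnm2SL/+ ASO Control.

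Treated mutants were set against WT ASO Control to ask what remains after treatment. Ahnak2 was the 1 gene of the 10 called higher (log2FC 1.90 ± 0.31, SE, 3.72-fold), where 1.66% of all tested genes were called higher and 4.52% in either direction. Trim72 and Ahnak2 did not overlap between the groups, beside 4.77% of all genes that were higher and 6.99% that were lower without overlap. For Trim72 that gap was narrow, with 230.9 CPM in the lowest Dnm2SL/+ ASO1 library and 229.8 CPM in the highest WT ASO Control library, and its log2FC was 0.06 ± 0.06. Anxa2 and S100a10 both had a log2FC of 0.40, with SE of 0.21 and 0.19. S100a10 was called as well in the fit without WT ASO Control replicate 1, with a log2FC of 0.63. Dysf, Ahnak, Anxa6 and Myof had log2FC between -0.03 and 0.03 with all libraries.

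Among mice that had all received ASO1, the genotypes were compared in libraries that the genotype comparison under ASO Control did not use, and here the genes were tested. The spread was still estimated over all 16 libraries. Earlier results of these data were known when the genes were chosen, so this test may not be independent of that choice. Of the 10, 1 gene was called, where 3.51% of all tested genes were called in either direction, 1.02% higher and 2.49% lower. Ahnak2 was higher in Dnm2SL/+ ASO1 at 15.0 ± 5.96 CPM (SD, n = 4) than in WT ASO1 at 2.61 ± 1.69 CPM (SD, n = 2), with a log2FC of 2.52 ± 0.43 (SE) and an edgeR adjusted p of 0.0143. It was higher in 4 of 4 Dnm2SL/+ ASO1 libraries than in either WT ASO1 library. DESeq2 and limma voom each called 1 of the 10 as well. The call was lost when only the groups compared were fitted (edgeR adjusted p = 0.14) and with the replicate number as a block (edgeR adjusted p = 0.052). It was also lost without WT ASO1 replicate 1 (log2FC 1.98). Without WT ASO1 replicate 2, the higher of the pair, the log2FC was 3.40. Either omission left a single WT ASO1 library that was assumed to vary like the other groups.

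Anxa1 followed with 20.9 ± 7.26 CPM in Dnm2SL/+ ASO1 and 11.5 ± 5.98 CPM in WT ASO1, a log2FC of 0.86 ± 0.39 (SE), and did not pass (edgeR adjusted p = 0.23). Its log2FC was 1.52 without WT ASO1 replicate 2, also not called. The log2FC was 0.46 ± 0.27 for Anxa2 (adjusted p = 0.35 in edgeR), 0.29 ± 0.24 for S100a10 (0.52) and 0.30 ± 0.26 for Myof (0.55). Anxa5, Ahnak, Trim72, Anxa6 and Dysf had log2FC between -0.04 and 0.16 with SE of 0.07 to 0.25, and edgeR adjusted p between 0.71 and 0.94.

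In WT mice ASO1 and ASO Control libraries overlapped for all 10 genes, where 9.72% of all genes were higher and 8.7% lower without overlap. The log2FC lay between -0.63 ± 0.43 (Ahnak2) and 0.11 ± 0.23 (S100a10), with a median of -0.017. None of the 10 was called by edgeR, DESeq2 or limma voom, and 0 had an unadjusted p under 0.05 in edgeR, although edgeR called 0 genes (0.0%) of all tested here, with 1605 genes at an unadjusted p under 0.05 and 97 calls by DESeq2. This comparison had 2 WT ASO1 libraries against 4 WT ASO Control libraries.

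Because the annexins changed by different amounts, the make-up of the family changed with them. The summed level of the 12 annexin genes of the table was 175.0 ± 13.9 RPKM in Dnm2SL/+ ASO1, 259.6 ± 20.3 RPKM in Dnm2SL/+ ASO Control, 158.9 ± 6.04 RPKM in WT ASO1 and 160.3 ± 9.74 RPKM in WT ASO Control (SD). Anxa6 took 48.8% ± 3.19 of that sum in Dnm2SL/+ ASO1, 39.9% ± 2.14 in Dnm2SL/+ ASO Control, 54.2% ± 2.31 in WT ASO1 and 52.3% ± 4.56 in WT ASO Control. Anxa2 took 7.09% ± 1.29, 14.3% ± 2.36, 5.74% ± 0.583 and 5.88% ± 1.101 of it in the same order of groups. Its share in each Dnm2SL/+ ASO Control library (10.9% to 17.1%) was above that in every other library. The share of Anxa5 stayed between 11.7% and 12.8% in the means of all 4 groups. Among the 6 ferlin genes, Dysf made up 91.0% ± 1.49 of the summed RPKM in Dnm2SL/+ ASO1, 94.8% ± 1.31 in Dnm2SL/+ ASO Control, 93.7% ± 1.76 in WT ASO1 and 92.5% ± 1.23 in WT ASO Control.

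**Figure D3:**
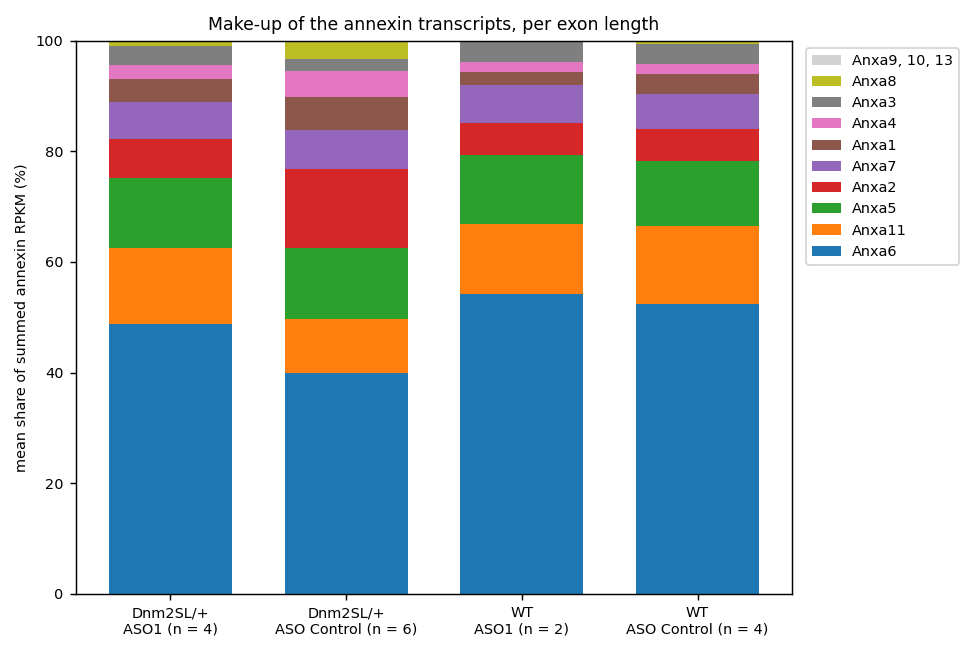
Mean share of each annexin gene in the summed annexin RPKM of its library, in percent, for the 4 groups. The Anxa6 block is 39.9% in Dnm2SL/+ ASO Control and 52.3% in WT ASO Control, and the Anxa2 block is 14.3% and 5.88% in the same groups.

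Other genes that followed the repair genes across the 16 libraries were ranked by the root mean square (RMS) difference of log2 CPM centred on each gene's mean, among the 11042 genes whose mean level on the log2 CPM scale was 1 or more. Groups and libraries are shared by all these genes, so the ranking is a description. The nearest to Trim72 were Des (RMS difference 0.070), which encodes the intermediate filament desmin, Ube2g2 and Klc1. The nearest to Dysf were Chrnb1 (0.085), a subunit gene of the muscle acetylcholine receptor, then Trim72 itself (0.089) and Cacnb1 (0.090), a calcium channel subunit. Dysf and Trim72 were thus close neighbours. The nearest to Ahnak2 were Fam171b at 0.45, then Ttc9 and Srrm4os at 0.57. The RMS difference was not scaled to a gene's own spread, and Ahnak2 had the largest fold difference of the 10. Sizes of the RMS difference are therefore not comparable between the repair genes.

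The annexins had other neighbours. Anxa2 was followed by Slc25a24, Fam129b and Il13ra1 (0.20 to 0.21), Anxa5 by Sbno2, Rcn1 and Ctsz (0.15 to 0.16), and Anxa6 by Dync1i2, Gnl1 and Gabarap (0.056 to 0.069). Anxa1 had Sh3d19 (0.19), Svep1 (0.30) and Mfap5 (0.31) as its nearest, the last of them on the fibro-adipogenic marker list used here. S100a10 had Uck2, Cyb5r3 and S100a6 (0.20 to 0.23). Ahnak had Cnksr1, Vwa5a and Dnajb4 (0.16 to 0.21), and Myof had Snx33, Il17rc and Bmp1 (0.14 to 0.16).

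A wider list of 54 genes of membrane repair was tested beside the 10. Of these, 53 were in the table and 49 passed the filter on low counts. Anxa10, Anxa13, Fer1l4 and Fer1l5 had at most 9 counts in any library, and Vamp7 was not analysed here. Under ASO Control 24 were higher and 3 lower in Dnm2SL/+ than in WT, beside 15.7% and 16.4% of all genes, with a median log2FC of 0.21. In Dnm2SL/+ mice 6 were higher and 19 lower under ASO1 than under ASO Control, beside 6.96% and 8.06% of all genes, with a median of -0.15. The list was drawn up by role with earlier results of these data known, so its p-values in the comparison of genotypes under ASO Control, and in those that share its libraries, are not independent support for a direction. Genes of this list are tested with edgeR and Benjamini-Hochberg adjustment over all genes in the paragraphs on it.

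All 4 S100 genes of the list that pair with annexins rose in Dnm2SL/+ ASO Control over WT ASO Control, and 3 of 6 tested other annexins did. Of all tested genes 15.7% were called higher there. S100a4 stood at 28.5 ± 9.94 CPM in Dnm2SL/+ ASO Control and 2.03 ± 1.48 CPM in WT ASO Control (13.9-fold, edgeR adjusted p = 1.9e-05), though its exons are overlapped on the same strand by Gm42674. S100a6 rose 2.90-fold (adjusted p = 1.7e-05) and S100a1 1.32-fold (adjusted p = 5.7e-04). Anxa4 rose 4.13-fold, to 55.8 ± 10.2 CPM in Dnm2SL/+ ASO Control against 13.5 ± 2.37 CPM in WT ASO Control (adjusted p = 1.1e-06). Anxa8 rose 10.6-fold on a low base of 1.45 ± 1.18 CPM in WT ASO Control (adjusted p = 7.9e-04), and Anxa7 1.82-fold (adjusted p = 1.3e-04). Under ASO1 all 3 of these annexins and S100a4, S100a6 and S100a11 fell in Dnm2SL/+ mice, with log2FC of -2.43 for Anxa8, -1.38 for Anxa4, -0.61 for Anxa7, -2.78 for S100a4, -0.95 for S100a6 and -0.58 for S100a11 (adjusted p 1.0e-04 to 0.013). Of all tested genes 8.06% were called lower in that comparison.

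The calpains, calcium-activated proteases, were split. Of the 5 genes 4 rose and 1 fell in Dnm2SL/+ ASO Control over WT ASO Control, beside 15.7% and 16.4% of all genes. Capns1, the small regulatory subunit, rose 1.70-fold (log2FC 0.77 ± 0.08, SE, adjusted p = 4.3e-06) and the calpain inhibitor Cast 1.54-fold (adjusted p = 1.1e-04). Capn3, the muscle calpain, fell to 157.6 ± 8.44 CPM in Dnm2SL/+ ASO Control, against 202.3 ± 8.27 CPM in WT ASO Control (log2FC -0.36 ± 0.05, adjusted p = 8.5e-05), with Ganc on the same strand over part of its exons. With ASO1 the same 5 moved the other way in Dnm2SL/+ mice, with 4 lower and 1 higher, beside 8.06% and 6.96% of all genes. Among those lower were Capns1 (log2FC -0.61), Cast (-0.54) and Capn2 (-0.47).

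Of the 8 genes of caveolae and EHD proteins, which shape the sarcolemma, 3 rose in Dnm2SL/+ ASO Control over WT ASO Control, beside 15.7% of all genes. Cav3, the muscle caveolin, had 90.0 ± 3.93 CPM in Dnm2SL/+ ASO Control and 47.9 ± 5.66 CPM in WT ASO Control (adjusted p = 1.0e-06), Cavin4 rose 1.75-fold (adjusted p = 0.0012) and Cavin1 1.28-fold (adjusted p = 0.0044). Cav3 and Cavin4 fell under ASO1 in Dnm2SL/+ mice (log2FC -0.66 and -0.98). Ehd2 behaved differently. Its level was 130.3 ± 20.4 CPM in Dnm2SL/+ ASO1, 91.5 ± 7.43 CPM in Dnm2SL/+ ASO Control, 87.0 ± 2.73 CPM in WT ASO1 and 92.7 ± 14.4 CPM in WT ASO Control (SD), and it was called higher in Dnm2SL/+ ASO1 against each of the other 3 groups (edgeR adjusted p = 0.0041, 0.038 and 0.026). Against WT ASO1 that call held in 8 of 15 alternatives, and against WT ASO Control in 12 of 17. It was lost against WT ASO1 without either WT ASO1 library or without Dnm2SL/+ ASO1 replicate 2 or 4, and against WT ASO Control without WT ASO Control replicate 2 or 4 or Dnm2SL/+ ASO1 replicate 4.

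Membrane scission and fusion genes moved little. Of the 11 genes of ESCRT-III and ALG-2, 6 rose and 1 fell in Dnm2SL/+ ASO Control over WT ASO Control, beside 15.7% and 16.4% of all genes. Among them were Chmp2a at 1.24-fold, Chmp3 at 1.21-fold and Vps4a, an ATPase that recycles ESCRT-III, at a log2FC of -0.27 (edgeR adjusted p = 7.4e-04). Vps4a and Chmp4b were lower in Dnm2SL/+ ASO1 than in WT ASO1, with log2FC of -0.32 and -0.29 (edgeR adjusted p = 0.022 and 0.023), each in 9 of 15 alternatives. Chmp4b had 117.0 ± 1.42 CPM in Dnm2SL/+ ASO1, 131.1 ± 5.82 CPM in Dnm2SL/+ ASO Control, 143.3 ± 12.3 CPM in WT ASO1 and 120.4 ± 2.86 CPM in WT ASO Control (SD), so that WT ASO1 was the highest group and the log2FC under ASO Control was 0.12 and not called. Neither was called without WT ASO1 replicate 1, nor without Dnm2SL/+ ASO1 replicate 2 or 4. Of 8 tested genes of exocytic fusion 3 rose under ASO Control, beside the same 15.7% of all genes. They were Stx4a (1.20-fold), Vamp2 (1.19-fold) and Vamp3 (1.15-fold). Smpd1, the lysosomal sphingomyelinase, was lower in Dnm2SL/+ than in WT mice under ASO Control (log2FC -0.24, adjusted p = 0.0019) and higher under ASO1 in Dnm2SL/+ mice (0.22, adjusted p = 0.0073).

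After treatment 4 genes of the wider list were higher in Dnm2SL/+ ASO1 than in WT ASO Control, and 0 were lower, beside 1.66% and 2.86% of all genes. These were Anxa4 (log2FC 0.67 ± 0.17, edgeR adjusted p = 0.039), Ehd1 (0.29 ± 0.08, adjusted p = 0.041), Ehd2 (0.49 ± 0.11, adjusted p = 0.026) and Parvb (0.36 ± 0.06, adjusted p = 0.0067), a partner of dysferlin. Not all were left over from untreated mutants. Ehd1 had 53.4 CPM in Dnm2SL/+ ASO1, 44.4 CPM in Dnm2SL/+ ASO Control and 43.5 CPM in WT ASO Control, and Ehd2 followed the same order in mutants. Parvb, at 104.0 CPM in Dnm2SL/+ ASO Control, was called higher there than in WT ASO Control (log2FC 0.17, edgeR adjusted p = 0.026). It was higher still under ASO1 in Dnm2SL/+ mice (0.19, edgeR adjusted p = 0.032, in 12 of 19 alternatives). Parvb had 118.5 ± 4.35 CPM in Dnm2SL/+ ASO1 and 92.1 ± 5.22 CPM in WT ASO Control and was called in all 17 alternatives, while Anxa4 and Ehd1 were each called in 9 of 17. The groups compared differ in both genotype and oligonucleotide. In WT ASO1 Parvb had 103.85 ± 8.12 CPM, and it was not called for Dnm2SL/+ ASO1 against that group (log2FC 0.19, edgeR adjusted p = 0.16). Neither were Anxa4 (log2FC 0.74, edgeR adjusted p = 0.070) and Ehd1 (0.19, edgeR adjusted p = 0.28). The Anxa4 call was lost on leaving out Dnm2SL/+ ASO1 replicate 1, 3 or 4, or replicate 2, 3 or 4 of WT ASO Control, and the Ehd1 call on leaving out Dnm2SL/+ ASO1 replicate 2, 3 or 4, or replicate 1, 2 or 4 of WT ASO Control. In WT mice edgeR called 0 of the 49 genes for ASO1 against ASO Control, where it called 0 of all 15649 tested genes. Of the 49, 8 had an unadjusted p under 0.05 in edgeR, beside 1605 of all tested genes. DESeq2 called 1 of the 49, beside 97 of all genes. With 2 WT ASO1 libraries, this does not show that ASO1 left these genes unchanged. Fer1l6, a low-level ferlin, was 2.05-fold higher under ASO1 in Dnm2SL/+ mice (adjusted p = 0.0027), and Flnc, which encodes filamin C, was lower there (log2FC -0.74, adjusted p = 0.028), in 12 of 19 alternatives, the other 7 each leaving out 1 library of Dnm2SL/+ ASO Control (replicate 2, 3, 4 or 5) or of Dnm2SL/+ ASO1 (replicate 1, 2 or 4).

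**Figure D4:**
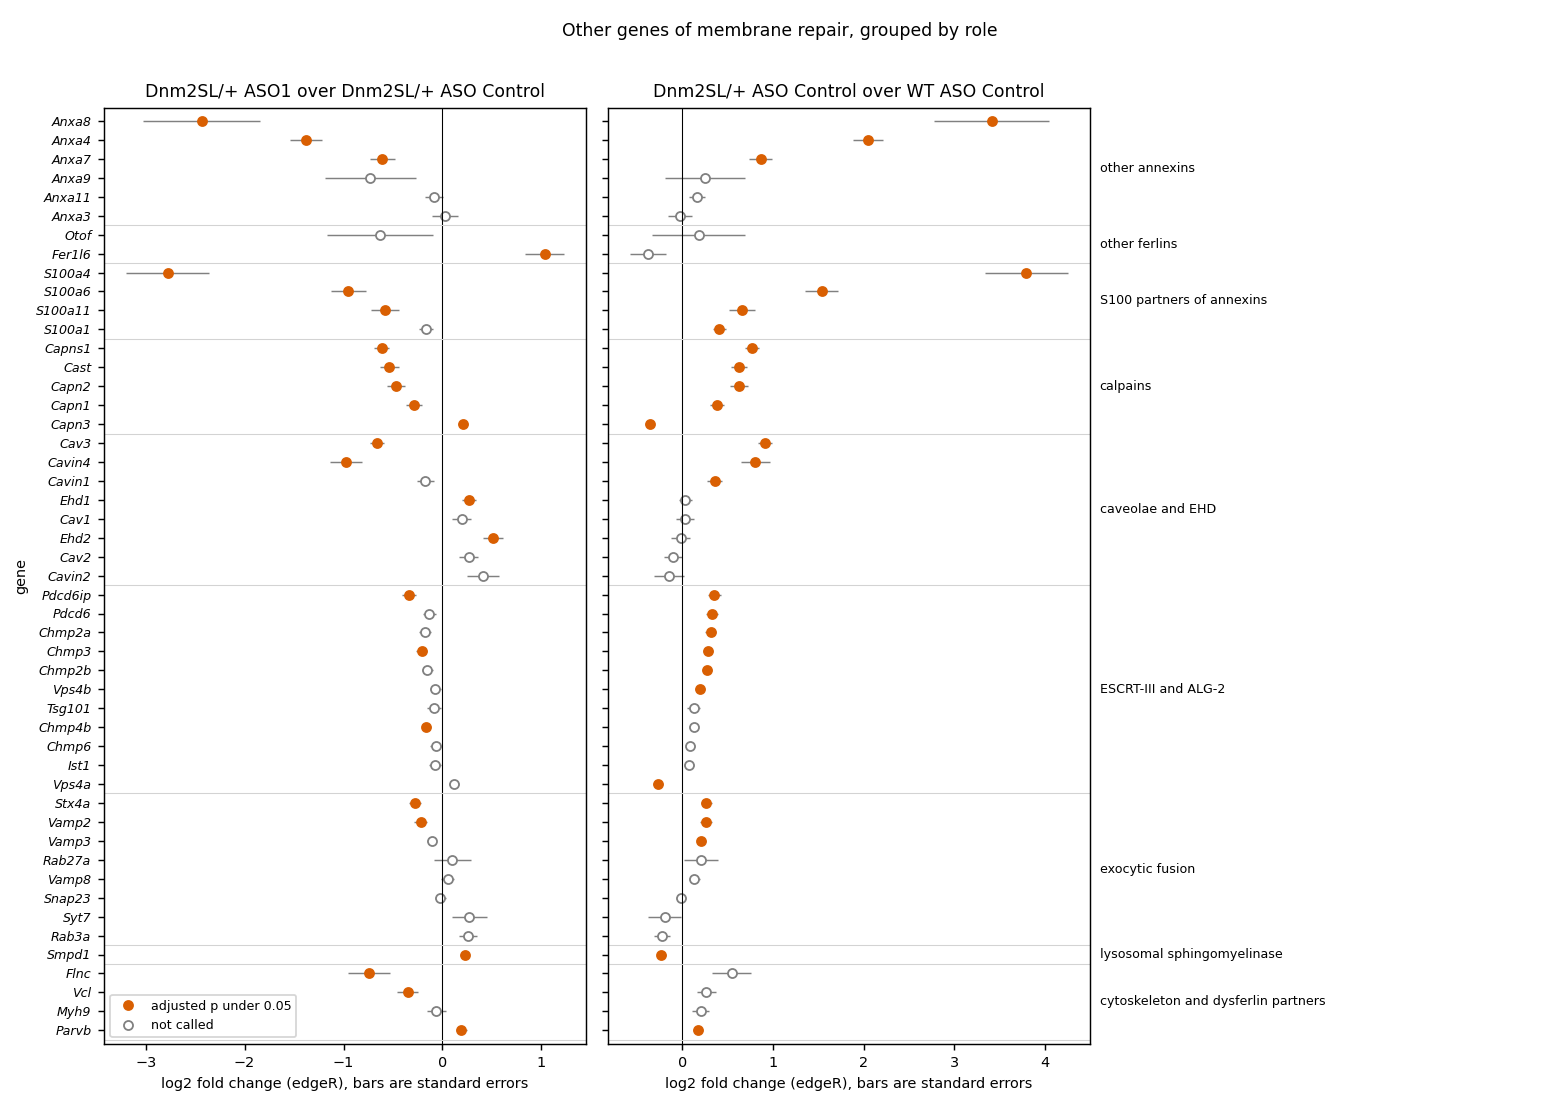
Log2 fold changes with standard errors of the 49 tested genes of the wider repair list, grouped by role, for Dnm2SL/+ ASO1 over Dnm2SL/+ ASO Control on the left and for Dnm2SL/+ ASO Control over WT ASO Control on the right. Filled points have an adjusted p under 0.05, which are 25 genes on the left and 27 on the right, and S100a4, Anxa8 and Anxa4 lie farthest out on both sides.

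Whole muscle holds fibres and many other cells, and in such tissue fewer cells of a type and less RNA per cell cannot be told apart. Markers of those cells were therefore summed in each library. Fibre markers, the defining genes of the labelled tissue, were high in every library, with summed levels of 187720 to 203770 CPM in Dnm2SL/+ ASO1, 155800 to 177270 CPM in Dnm2SL/+ ASO Control, 211220 to 249290 CPM in WT ASO1 and 206230 to 223030 CPM in WT ASO Control. In Dnm2SL/+ ASO Control over WT ASO Control 9 of the 13 were lower and 1 was higher, where 16.4% of all tested genes were lower and 15.7% higher. Fibro-adipogenic markers summed to 1367.9 to 2731.0 CPM in Dnm2SL/+ ASO1, 2695.3 to 3539.7 CPM in Dnm2SL/+ ASO Control, 872.7 to 1355.0 CPM in WT ASO1 and 1116.5 to 2823.4 CPM in WT ASO Control, and 6 of 12 were called higher in the same comparison, beside the same 15.7%.

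Macrophage markers summed to 63.7 to 143.3 CPM in Dnm2SL/+ ASO1, 97.6 to 191.3 CPM in Dnm2SL/+ ASO Control, 37.7 to 97.4 CPM in WT ASO1 and 51.8 to 119.9 CPM in WT ASO Control, with 5 of 14 called higher in Dnm2SL/+ mice than in WT mice under ASO Control, again beside 15.7% of all genes. Endothelial markers summed to 832.4 to 1238.1 CPM in Dnm2SL/+ ASO1 and 665.1 to 844.4 CPM in Dnm2SL/+ ASO Control. WT ASO1 had 786.9 to 851.8 CPM and WT ASO Control 780.2 to 931.9 CPM. In Dnm2SL/+ mice 5 of 10 were called higher under ASO1 and 0 lower, beside 6.96% and 8.06% of all genes. The highest sums were in replicates 2 and 4 of Dnm2SL/+ ASO1, the group with the highest Ehd2. The part of endothelial cells in the Ehd2 level was not tested. No marker on these lists was at 0 in all libraries. The libraries with the highest fibro-adipogenic sums outside Dnm2SL/+ ASO Control, replicates 3 and 4 of Dnm2SL/+ ASO1 and replicate 1 of WT ASO Control, were also those with the highest Anxa2 and S100a10 there. Within Dnm2SL/+ ASO Control that order did not hold. Replicate 1 had the highest fibro-adipogenic sum (3539.7 CPM) and the lowest Anxa2 (93.2 CPM). Replicate 5 had the lowest sum (2695.3 CPM) and 174.8 CPM of Anxa2. Replicate 2, with the next highest sum (3228.9 CPM), had the highest Anxa2 (175.9 CPM). For Anxa6, WT ASO Control replicate 1 was the lowest library of its group. The part of these cells in the levels of the repair genes was not tested. Of the other lists, 0 of 6 adipocyte and 0 of 8 Schwann cell markers were called in that comparison, 1 of 7 tendon markers was higher, 1 of 10 endothelial markers was lower, 1 of 9 mural markers was higher and 4 were lower, and 3 of 6 satellite cell markers were lower, beside 15.7% of all genes higher and 16.4% lower. Of 10 lymphocyte and neutrophil markers 2 were tested and 0 were called. Summed satellite cell markers were lowest in Dnm2SL/+ ASO1, at 26.9 to 31.9 CPM, against 36.3 to 48.7 CPM in Dnm2SL/+ ASO Control. WT ASO1 had 40.05 to 48.7 CPM and WT ASO Control 42.0 to 51.9 CPM. Of these 6 markers, 2 were called lower in Dnm2SL/+ ASO1 than in Dnm2SL/+ ASO Control, beside 8.06% of all genes. Against WT ASO1 2 were called lower as well, beside 2.49% of all genes.

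**Figure D5:**
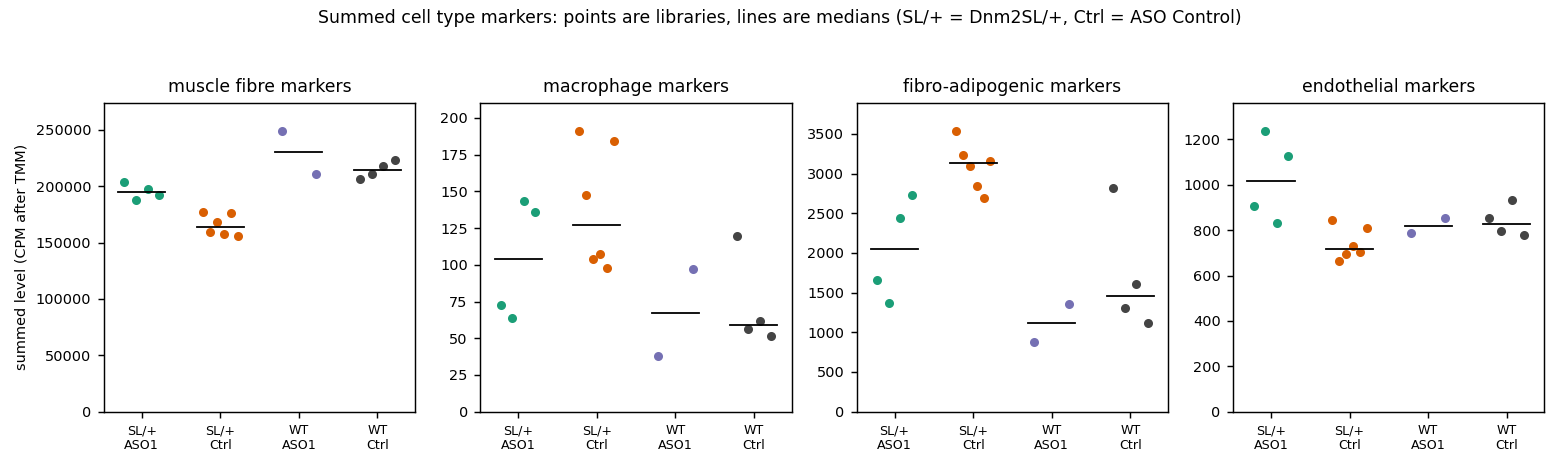
Summed level in CPM of the markers of muscle fibres, macrophages, fibro-adipogenic cells and endothelium, with a point for each library and a line at the group median. Fibro-adipogenic sums reach 2731.0 CPM in Dnm2SL/+ ASO1 and 2823.4 CPM in 1 WT ASO Control library, while the 6 Dnm2SL/+ ASO Control libraries start at 2695.3 CPM.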

How the data were processed

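Counts of reads per gene came from 16 RNA sequencing libraries of tibialis anterior. The labels name TRI Reagent for the RNA and a stranded mRNA kit for the libraries. The submitters' processing notes list HTSeq 0.6.1p1, STAR 2.5.3a, Bowtie2 2.2.8 and cutadapt 1.10 with the build GRCm38, and the authors deposited whole-number counts without normalization. How strand was set in counting, and which annotation was used, were not given in the sources used here, so a gene and another on its opposite strand cannot be told apart. The submitters corrected the label of 1 library, and WT ASO1 held 2 libraries here. All 16 columns were used, and GENCODE M21 gave a symbol for each of the 30037 gene IDs.

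Genes kept by filterByExpr were TMM-scaled and fitted in edgeR 4.0.16 (R 4.3.3) as 4 group means over 16 libraries, which left 12 residual degrees of freedom, and contrasts were tested by quasi-likelihood. P-values were adjusted by Benjamini-Hochberg over 15649 genes with a threshold of 0.05, and each SE was log2FC divided by the root of F, without sign. RPKM divide CPM by merged exon length in units of 1000 bases. Totals of 30148163 to 33667052 counts per library keep counting error small except for the lowest genes. All 120 pairs of libraries differed beyond counting noise (chi-squared per degree of freedom 9.87 to 191.2).

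The 10 genes and all lists were chosen with earlier results of these data known. For the 10, p-values are given only for Dnm2SL/+ ASO1 against WT ASO1. Named besides them are Dnm2, in each sub-list of the wider repair list and each comparison at most the 3 called genes with the smallest p, and for each of the 10 the 3 nearest genes by RMS difference. The alternatives comprised scaling by RLE or upper quartile, a fit of all genes, a minimum of 1 CPM in 4 libraries, DESeq2 1.42.0, voom with quality weights in limma 3.58.1, a replicate block, library sizes without the 20 most counted genes, a fit of only the groups compared, and leaving out each library.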

Additional observations from a re-analysis of the deposited data

Results flagged for a closer look

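In 4 of 33 groups checked, counting 1 gene in 1 group of libraries each, a single library stood far from the others by Dixon's criterion, which chance alone gives in about 1 in 20 groups. Dnm2SL/+ ASO Control replicate 6 had 11.2 CPM of Myof, and the next library of its group had 8.17 CPM. WT ASO Control replicate 1 had 48.3 CPM of Anxa2, against at most 32.2 CPM in the other 3, and 23.8 CPM of S100a10, against at most 14.1 CPM. Dnm2SL/+ ASO1 replicate 3 had 23.8 CPM of Ahnak2, and the next library had 12.8 CPM.

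For 3 genes ASO1 libraries lay on opposite sides of their ASO Control mean in the 2 genotypes. The log2FC of ASO1 was -0.59 in Dnm2SL/+ and 0.0279 in WT for Trim72, -0.28 in Dnm2SL/+ and 0.0419 in WT for Anxa6, and -1.098 in Dnm2SL/+ and 0.109 in WT for S100a10. That difference between genotypes was not tested. In WT mice the ASO1 and ASO Control libraries overlapped for all 3 genes. For S100a10 WT ASO1 replicate 2 had 16.502 CPM, beside a WT ASO Control mean of 16.497 CPM.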

How the results depend on the processing

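Among the 850 alternative values of the log2FC of the 10 genes, 29 changed sign, all where the value as reported was not called and at most 0.11 in size: 12 for Dnm2SL/+ ASO1 against WT ASO Control, 10 for ASO1 in WT and 7 for Dnm2SL/+ ASO1 against WT ASO1. A call was lost in 6 (Ahnak2 in 3 fits of Dnm2SL/+ ASO1 against WT ASO1, Anxa5 in 2 and Anxa1 in 1 of ASO1 in Dnm2SL/+) and gained in 1 (S100a10 for Dnm2SL/+ ASO1 against WT ASO Control). The number of the 10 called for Dnm2SL/+ ASO1 against WT ASO1 was 1, and 0 when only the groups compared were fitted (Ahnak2 log2FC 2.52, adjusted p = 0.14), with a range of 0 to 1 when each library was left out (Ahnak2 1.98 without WT ASO1 replicate 1). Values close to 0 turned there for Dysf (-0.1146 to 0.045 with a library left out, and 0.0014 without Dnm2SL/+ ASO1 replicate 1), Anxa6 (0.0145 with upper-quartile scaling and a range of -0.0326 to 0.0176 with a library left out) and Ahnak (-0.13 to 0.1685 with a library left out). For Dnm2SL/+ ASO1 against WT ASO Control the count of the 10 ranged from 1 to 2 with a library left out. Of the wider repair list, 3 genes were called for Dnm2SL/+ ASO1 against WT ASO1, but 1 without a filter, 5 by DESeq2, 0 with only the groups compared and 0 to 4 with a library left out. For Dnm2SL/+ ASO1 against WT ASO Control 4 were called, but 8 by DESeq2, 1 with only the groups compared and 1 to 4 with a library left out, and for ASO1 in WT 0, but 1 by DESeq2. The log2FC of Dnm2 for ASO1 in WT was -1.14 (adjusted p = 0.22) and -1.13 by DESeq2 (adjusted p = 4.2e-04). Over all genes, calls for Dnm2SL/+ ASO1 against WT ASO1 were 549, but 302 without a filter, 1169 by DESeq2, 244 by limma voom, 4 with only the groups compared and as few as 0 with a library left out. For Dnm2SL/+ ASO1 against WT ASO Control they were 707 (260 higher and 447 lower), but 1281 by DESeq2, 215 with only the groups compared, 189 to 975 with a library left out, and 309 higher and 331 lower with upper-quartile scaling. For ASO1 in WT they were 0, but 97 by DESeq2 and 0 to 9 with a library left out. Except for the smaller fits, the cause was not tested. Ahnak2 had 40 to 175 counts in the WT libraries.

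With the replicate number as a block, 0 of the 10 genes were called for Dnm2SL/+ ASO1 against WT ASO1 (Ahnak2 log2FC 2.45, adjusted p = 0.052, and Ahnak log2FC -0.0113) and 7 for ASO1 in Dnm2SL/+, since Anxa1 and Anxa5 were not. The block left 0 genes of the wider list called for Dnm2SL/+ ASO1 against WT ASO1 and 2 for Dnm2SL/+ ASO1 against WT ASO Control, and 123 and 446 genes over the whole table in these comparisons. Same-numbered libraries correlated at -0.12 to 0.25 in their deviations, and other pairs at -0.27 to 0.27. With only 2 or 4 same-numbered pairs in a comparison, this cannot decide whether the numbers pair the libraries.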
